A study of Rattus with 52 samples.

Results

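Gene expression was compared between kidney and left ventricle (LV) of Sham rats for one question: which transcripts changed by a different amount with peritoneal dialysis in the kidney than in the LV, and which changed alike. The comparison took all 24 Sham libraries of the 52 in the series, 6 each of kidney PD, kidney Control, LV PD and LV Control. The animals were male Sprague Dawley rats with intact kidneys and a sham operation at 10 weeks of age. PD rats received 3 exchanges of dextrose dialysate per day for 8 days. Control rats received no dialysate, but underwent the same surgery and implantation of an abdominal catheter. The exchanges, with fluid withdrawal and a daily change of catheter, are described for PD rats alone, so these steps and the dialysate cannot be told apart. The paper also reports that PD rats had a lower food intake than Control rats, which cannot be told apart from the dialysis either. RNA came from pulverised pieces of whole tissue, with no cells sorted. The labels do not say which kidney and which LV library came from the same rat, so libraries were not paired by animal and entered as independent.

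In peritoneal dialysis, a sugar solution is left in the abdominal cavity and draws solutes and water across the peritoneum from the blood. The kidney and the heart do not touch the solution and meet it through the circulation, through blood-borne cells, cytokines and hormones, and through the absorbed sugar. Neutrophils carry stored granule proteases and the calcium-binding proteins S100a8 and S100a9, red cell precursors and reticulocytes carry globin transcripts, and endothelial cells of either organ put out adhesion molecules when they meet inflammatory cytokines. The kidney also carries epithelia that the LV lacks, and the LV is dominated by the transcripts of its muscle cells.

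Gene-level reads per library came to 16.7 to 65.5 M (M, mega) in kidney PD and 40.8 to 55.5 M in kidney Control, and to 31.1 to 102.0 M in LV PD and 33 to 111.8 M in LV Control. Tissue labels matched their markers. The summed level of the cardiomyocyte markers was 150.7 to 792.9 normalized reads in kidney libraries and at least 2486270.0 in LV libraries, while 10 proximal tubule markers summed to at least 674614 in kidney and at most 2191 in LV. In LV, library PD 2 stood apart: on the first principal component (52.6% of the variance of 1000 genes) it lay at -15.0, with the other 5 PD libraries at 4.44 to 20.4 and the 6 Control libraries at -23.4 to 4.35. In kidney the first component (23.4%) held PD libraries at -0.54 to 11.5 and Control libraries at -14.1 to -0.15. Interaction calls of the genes described, and list counts that move by over 1.5 times, are given with and without LV PD 2 where it changes them.

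Log2 changes below are differences of the deposited variance-stabilised log2 values, on which 10, 100, 1000 and 10000 normalized reads stand at 6.5, 7.67, 10.13 and 13.31. At low read numbers a log2 difference is compressed, and a gene with few reads in one tissue can show a difference between tissues on this scale that its read folds do not show. Values per library are given as normalized reads, and a fold is the ratio of the group means of normalized reads. The interaction is the change with PD in kidney minus the change with PD in LV, so a positive value means a more positive change in kidney. Genes were called in limma where the p adjusted over all genes tested (Benjamini-Hochberg) was under 0.05, here named passing. Errors are the standard errors of limma. They rest on a spread per gene that is shared by the 4 groups of 6 libraries and drawn toward that of other genes.

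The change with PD differed between kidney and LV for 15 of 17271 genes (0.0869%), 6 with a positive interaction (0.0347%) and 9 with a negative one (0.0521%). At an unadjusted p under 0.05 there were 923 genes with a positive (5.34%) and 1124 with a negative interaction (6.51%). For 14 of the 15 genes the estimates had opposite signs in the tissues, higher in kidney and lower in LV for 6 and the reverse for 8. Tested on its own in the same model, the change in kidney passed for 6 of the 15 genes and that in LV for 10, and Rras2 passed in both. Over all genes, PD raised 82 (0.475%) and lowered 70 (0.405%) in kidney, and raised 429 (2.48%) and lowered 332 (1.92%) in LV.

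**Figure D1:**
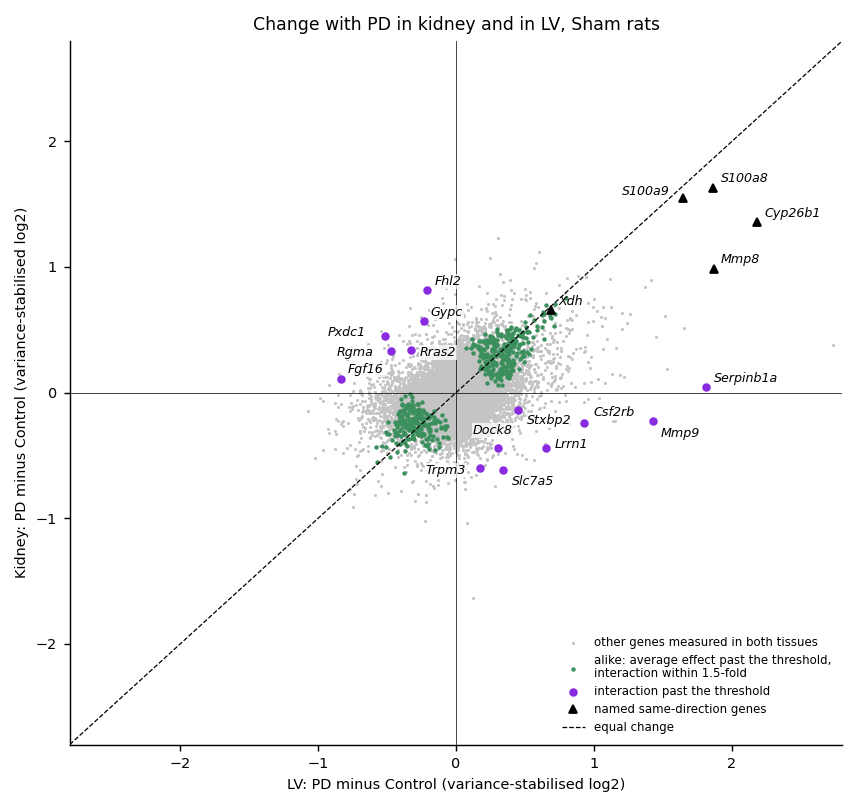
Change with PD in kidney (y axis) against the change in LV (x axis) for each gene measured in both tissues, both as differences of variance-stabilised log2 values, with the dashed line at equal change. Of the genes past the interaction threshold, 14 (purple) are drawn and lie mostly in the upper left and lower right, where the signs differ, while the alike genes (green) lie near the line; Fgf16 is drawn although it was measured in LV only.

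Among genes of leukocytes and secretion, the largest interaction was that of Serpinb1a, an inhibitor of neutrophil proteases. It had 2068 to 2743 normalized reads (median 2447) in kidney PD, against 1885 to 3127 (median 2197) in kidney Control. LV libraries had 998 to 2481 (median 1175) with PD, against 135 to 418 (median 323) in Control. Kidney libraries overlapped, and each LV PD library lay above every LV Control library, with library PD 5 well above the rest. The fold was 1.02 in kidney and 4.48 in LV (interaction -1.77, standard error 0.26, adjusted p = 0.00452), and this was the one gene of the 15 with the same sign in both tissues. LV therefore reached about the kidney's level in 1 PD library and stayed below it in the others.

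Mmp9, the gelatinase of neutrophil granules, had 30.4 to 275 normalized reads (median 78.6) in kidney PD, against 69.1 to 210 (median 116) in kidney Control. In LV the range was 267 to 574 (median 324) with PD, against 45.5 to 101 (median 78.4) in Control. The LV groups did not overlap and the kidney groups did, with the highest and the lowest kidney library both in the PD group. Mmp9 rose 4.86-fold in LV, and its fold in kidney was 0.83 (interaction -1.65, standard error 0.29, adjusted p = 0.0219).

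Csf2rb, the shared signalling subunit of the receptors for interleukin 3, interleukin 5 and GM-CSF, had 10942 to 13901 normalized reads (median 12923) in kidney PD, against 13386 to 17192 (median 14782) in kidney Control. LV libraries held far fewer, 815 to 1539 (median 976) with PD, against 318 to 813 (median 462) in Control. LV groups did not overlap, and 3 of 6 kidney PD libraries lay below the kidney Control range. The fold was 0.84 in kidney and 2.05 in LV (interaction -1.17, standard error 0.22, adjusted p = 0.0233).

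Dock8, an activator of the GTPase Cdc42 needed for leukocyte migration, fell in kidney, to 4498 to 6651 normalized reads (median 6119.6) with PD, against 7632 to 8699 (median 7841) in Control. Its LV range was 619 to 1028 (median 694) with PD, against 498 to 699.9 (median 576) in Control. Kidney groups did not overlap and LV groups did. The folds were 0.74 and 1.29 (interaction -0.75, standard error 0.14, adjusted p = 0.0361). Stxbp2, a syntaxin-binding protein of granule release, had 2471 to 2845 (median 2611) in kidney PD, against 2774 to 3099 (median 2909) in kidney Control, and 193 to 321 (median 266) in LV PD, against 116 to 194 (median 168) in LV Control. Groups of both tissues overlapped, by 1 PD library in LV. It rose 1.58-fold in LV, with a fold of 0.91 in kidney (interaction -0.59, standard error 0.12, adjusted p = 0.0466).

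The summed neutrophil markers were higher with PD in both tissues, while none of these 5 genes rose in kidney. The sum over 33 of 40 listed genes was 4963 to 10663 normalized reads in kidney PD, against 3053 to 4867 in kidney Control, and 25648 to 42565 in LV PD, against 14337 to 22125 in LV Control. PD and Control libraries did not overlap in either tissue. Cd177 and LOC100909700, also on that list, were at 0 in every kidney Control library. Serpinb1a, Csf2rb, Dock8 and Stxbp2 had more reads in each kidney Control library than in any LV Control library, the reverse of the neutrophil sum. Which cells gave their kidney reads was not tested. The part of neutrophils in the results was not tested either, and in whole tissue more cells of a type and more RNA per cell cannot be told apart.

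Gypc, the red cell membrane protein glycophorin C, had a positive interaction. It had 262 to 397 normalized reads (median 310.3) in kidney PD, against 103 to 282 (median 181) in kidney Control, and 3209 to 4526 (median 3673) in LV PD, against 4061 to 5096 (median 4316) in LV Control. In each tissue 5 of 6 PD libraries lay outside the Control range. Gypc rose 1.71-fold in kidney, with a fold of 0.85 in LV (interaction 0.81, standard error 0.16, adjusted p = 0.0466). The summed erythroid markers were 754058 to 975581 normalized reads in LV PD, against 365239 to 641427 in LV Control, without overlap, and 91564 to 215599 in kidney PD, against 95065 to 127332 in kidney Control, with overlap. Gypc thus had an estimate opposite in LV to that sum. The part of red cells in these results was not tested.

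Both transport genes fell in kidney. Slc7a5, the catalytic chain of a large neutral amino acid transporter, had 344 to 549 normalized reads (median 394) in kidney PD, against 471 to 995 (median 735) in kidney Control. LV held 385 to 518 (median 431) with PD, against 275 to 413 (median 313) in Control. In each tissue 4 of 6 PD libraries lay outside the Control range. The fold was 0.59 in kidney and 1.35 in LV (interaction -0.96, standard error 0.18, adjusted p = 0.0233), so that the kidney's excess over LV among Control libraries was not seen among PD libraries.

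Trpm3, a calcium-permeable cation channel, had 109.7 to 162 normalized reads (median 129.9) in kidney PD, against 173 to 329 (median 252) in kidney Control, with no overlap. In LV it had 46.6 to 60.7 (median 51.5) with PD, against 30.1 to 57.9 (median 39) in Control, with overlap. The fold was 0.52 in kidney and 1.33 in LV (interaction -0.77, standard error 0.13, adjusted p = 0.0138).

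The remaining genes act in signalling, growth or cell surface contacts, or have a less defined role. Rras2, a Ras-related GTPase, was the only gene of the 15 that passed in each tissue. It had 2748 to 3348 normalized reads (median 2975) in kidney PD, against 2242 to 2527 (median 2353) in kidney Control, with no overlap, and 2241 to 2629 (median 2427) in LV PD, against 2549 to 3414 (median 3246) in LV Control. In LV 4 of 6 PD libraries lay below the Control range. Rras2 rose 1.28-fold in kidney and fell in LV, where its fold was 0.79 (interaction 0.67, standard error 0.10, adjusted p = 0.00452).

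Fhl2, a LIM-domain protein abundant in heart muscle, had 849 to 1317 normalized reads (median 1075) in kidney PD, against 335 to 865 (median 621) in kidney Control. LV libraries held many more, 46399.8 to 70474 (median 56076) with PD, against 56157 to 76172 (median 64250.0) in Control. In kidney 5 of 6 PD libraries lay above the Control range and in LV the groups overlapped. Fhl2 rose 1.86-fold in kidney, with a fold of 0.87 in LV (interaction 1.02, standard error 0.20, adjusted p = 0.0399).

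Rgma, a coreceptor of bone morphogenetic proteins, had 280.4 to 480.1 normalized reads (median 347) in kidney PD, against 199 to 324 (median 255) in kidney Control. LV levels were 1768 to 2784 (median 2559) with PD, against 3293 to 3464 (median 3352) in Control, so that the LV groups did not overlap and the Control libraries lay close together. The folds were 1.36 and 0.72 (interaction 0.81, standard error 0.15, adjusted p = 0.0233), and the fall passed in LV. Pxdc1, named for its phox-homology domain, had 556 to 1032 (median 808) in kidney PD, against 439 to 665 (median 566) in kidney Control, and 2625 to 3387 (median 2731) in LV PD, against 3502 to 4803 (median 4164) in LV Control. Here too the LV groups did not overlap. Its folds were 1.45 and 0.69 (interaction 0.96, standard error 0.16, adjusted p = 0.0118).

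Lrrn1, a leucine-rich repeat membrane protein known from neurons, had 35.5 to 133 normalized reads (median 97.1) in kidney PD, against 109.6 to 199.8 (median 146) in kidney Control. In LV it had 373 to 586 (median 559.5) with PD, against 209 to 389.8 (median 278) in Control. In LV 5 of 6 PD libraries lay above the Control range, and in kidney 3 of 6 lay below it. Lrrn1 rose 1.77-fold in LV, with a fold of 0.61 in kidney (interaction -1.09, standard error 0.20, adjusted p = 0.0224).

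Fgf16, which encodes a fibroblast growth factor made in heart muscle, differs from the other 14 in that it was not measured in kidney. It was at 0 in every kidney library but 1 PD library, which had 12.8 normalized reads. In LV it had 431 to 754 (median 599.9) with PD, against 974 to 1299 (median 1084) in Control, with no overlap. Fgf16 fell in LV, to 0.52 of the Control mean, and its interaction (0.95, standard error 0.17, adjusted p = 0.0224) is a statement about LV alone. On the recovered reads with limma-voom, which weights genes with few reads down, the interaction was 1.61 with an adjusted p of 0.607.

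**Figure D2:**
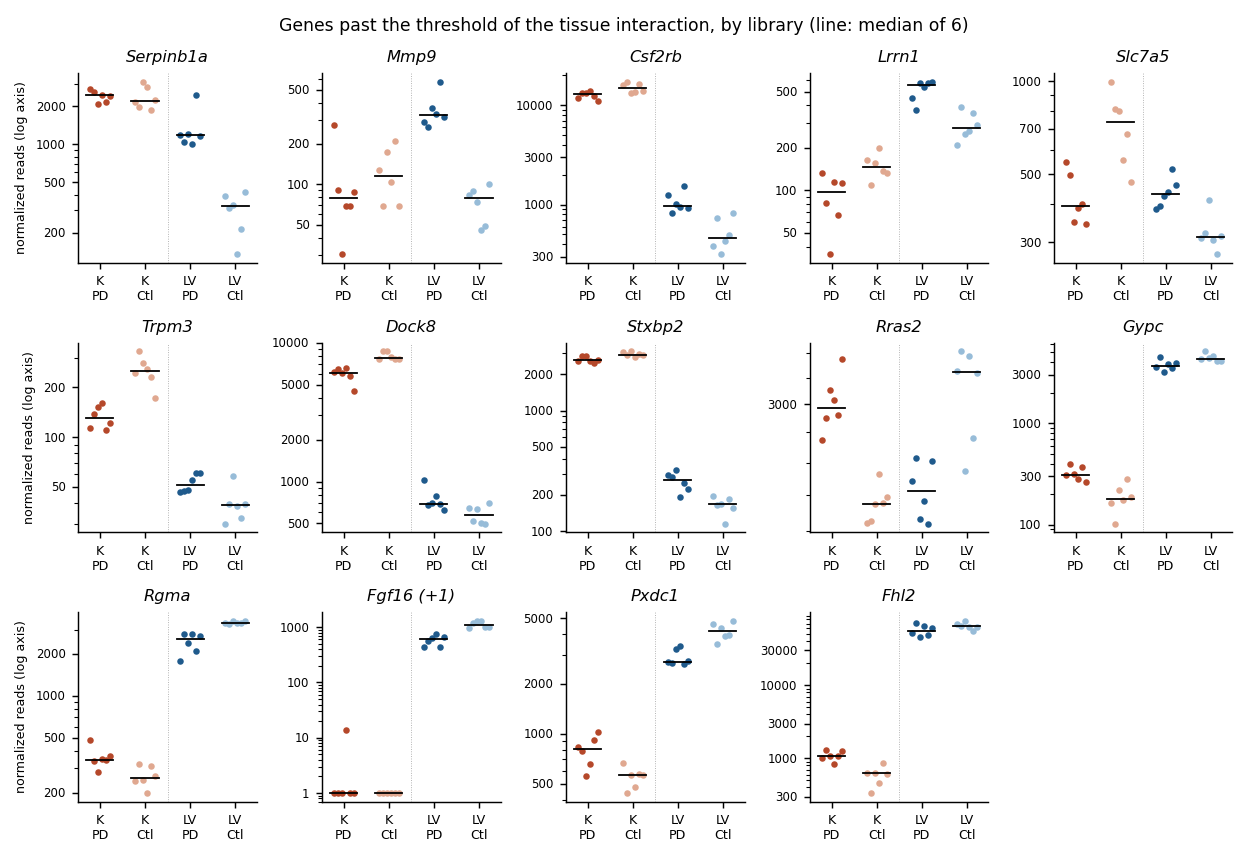
Normalized reads per library (log axis, 1 point per library, line at the median of 6) of 14 of the 15 genes past the interaction threshold, in kidney (K) PD and Control and in LV PD and Control (Ctl). PD and Control libraries do not overlap in LV for Serpinb1a, Mmp9, Csf2rb, Rgma, Fgf16 (drawn as reads plus 1) and Pxdc1, and in kidney for Trpm3, Dock8 and Rras2.

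The counts of calls depended on single libraries. Left out one at a time, the 24 libraries gave 5 to 148 genes past the interaction threshold, with 5 without kidney Control 1 or LV Control 4, 26 without kidney PD 3 or PD 4, and 148 without LV PD 2. Rras2, Serpinb1a, Pxdc1 and Trpm3 were among 5 genes that passed whichever library was left out, these 4 with adjusted p of 0.0335 or lower. Dock8 was lost in 10 of those 24 fits (adjusted p up to 0.0722), Fhl2 in 16 (up to 0.0772), Gypc in 17 and Stxbp2 in 18 (both up to 0.102). The other 6 were lost in 2 or 3, each without kidney Control 1 and without LV Control 4, at adjusted p up to 0.0551. There were also 11 alternatives of another kind (other scaling, filters, weights or library sets). Of these, Rras2 (adjusted p up to 0.0779), Trpm3 (0.117), Rgma (0.305) and Csf2rb (0.531) were each lost in 1 and Lrrn1 (0.175) in 2. Dock8 was also lost in 1, Fhl2 in 2, Stxbp2 in 3 and Gypc in 6 of the 11, and Fgf16 in 4 of 10. Serpinb1a, Pxdc1, Mmp9 and Slc7a5 were lost in 0.

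Without LV PD 2, all 15 genes still passed and 133 were added, for 69 positive and 79 negative interactions. Each of the 133 had the same sign with all 24 libraries, and 132 were at an unadjusted p under 0.05 there. That is no separate support, since both fits share all the other libraries. LV PD 2 lay within the Control range of the first principal component, so leaving it out is not a neutral choice. Icam1, an endothelial adhesion molecule for leukocytes, was among them. It had 1499 to 2123 normalized reads (median 1925) in kidney PD, against 1109 to 1502 (median 1354) in kidney Control, and 2009 to 3977 (median 2865) in LV PD, against 939.8 to 1589 (median 1353) in LV Control. LV groups did not overlap. Its folds were 1.38 and 2.27, with an interaction of -0.67 (adjusted p = 0.166) over 24 libraries and -0.76 (adjusted p = 0.038) without LV PD 2.

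**Figure D3:**
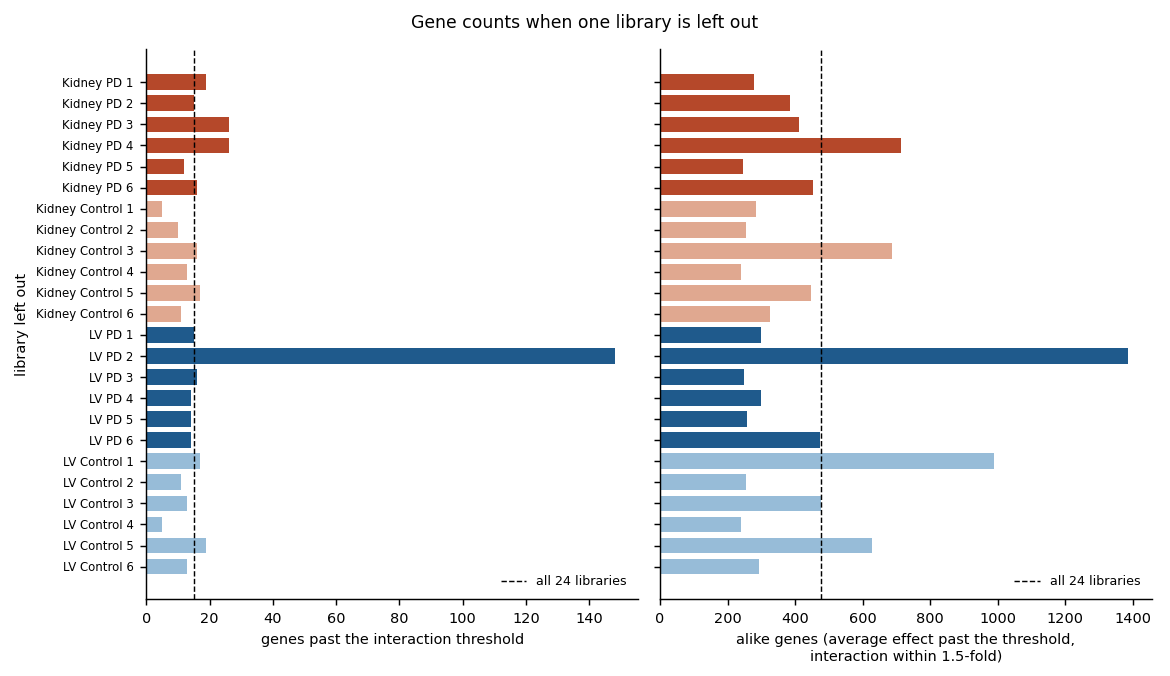
Number of genes past the interaction threshold (left) and of alike genes (right) when the library named on the y axis is left out, with the dashed line at the count from all 24 libraries. Leaving out LV PD 2 gives 148 and 1387 genes, against 15 and 478 from all libraries.

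Several genes lay outside the threshold, Polg2 and LOC100909700 closely. Polg2, the accessory subunit of the mitochondrial DNA polymerase, had 1002 to 1560.5 normalized reads (median 1119) in kidney PD, against 652 to 1072 (median 849.9) in kidney Control, and 311 to 452 (median 359) in LV PD, against 433 to 498 (median 465) in LV Control. Its folds of 1.37 and 0.78 gave an interaction of 0.70 (adjusted p = 0.0501, and 0.0313 without LV PD 2), against 0.0466 for Gypc just inside. LOC100909700 had a median of 33.6 normalized reads in LV PD (18.6 to 152), against at most 1.73 in LV Control, and at most 11.5 in kidney PD, against 0 in kidney Control (interaction -1.03, adjusted p = 0.0532, and 0.0261 without LV PD 2). Cd177, a surface protein of neutrophils, was alike in kind, with 18.6 to 247 (median 50.8) in LV PD, against at most 8.50 in LV Control, and 0 to 13.6 (median 2.05) in kidney PD, against 0 in kidney Control (interaction -1.06, adjusted p = 0.122). Both rose in LV, and with so few reads in kidney the sizes of their changes there cannot be compared on the read scale.

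Pairs of related genes did not pass either, some of them far from the threshold. Cish and Socs2, inhibitors of cytokine receptor signalling induced by STAT5, both fell in LV. Cish had 1245 to 2563 normalized reads (median 1754) in kidney PD, against 1148 to 2394 (median 1346) in kidney Control, and 543 to 1198 (median 923) in LV PD, against 1308 to 1938 (median 1699) in LV Control (interaction 1.08, adjusted p = 0.0788, and 0.031 without LV PD 2). Socs2 had folds of 1.02 in kidney and 0.68 in LV, and LV PD at 1846 to 2177 lay below LV Control at 2678 to 3164 (interaction 0.54, adjusted p = 0.122). Selp and Sele, the endothelial selectins, rose 4.18-fold and 2.67-fold in LV, while in kidney their medians were 70.3 and 51.3 reads in PD, against 60.2 and 43.7 in Control, with interactions of -1.05 (adjusted p = 0.293) and -0.91 (adjusted p = 0.329) over a wide LV PD spread, 106 to 1357 reads for Selp and 392 to 2593 for Sele. In kidney, Scn8a, a voltage-gated sodium channel, fell to 472 to 729 (median 662) with PD, against 1094 to 1668 (median 1492) in Control, with no overlap, while LV libraries held at most 25.3 reads with PD and 31.7 in Control (interaction -1.12, adjusted p = 0.0788, and 0.0482 without LV PD 2).

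Agreement between the tissues was broad but weak gene by gene. Over the 14712 genes with enough reads in both, 62.5% had estimates of the same sign, and the changes correlated at Pearson's r = 0.39 and Spearman's rho = 0.36, a description across genes of libraries scaled together, for which genes are not replicates. The standard deviation of the change over genes was 0.195 in kidney and 0.232 in LV. A test that asks for a change in the same direction in each tissue, on the larger of the 2 p-values, called 0 genes (0%) after adjustment in limma, with a smallest adjusted p of 0.0595. At an unadjusted p under 0.05 in both, 313 genes (2.13%) were higher and 169 (1.15%) lower in both tissues, and 73 had opposite signs. With limma-voom the adjusted count was also 0, with 542 genes at the unadjusted level. Adjusted in each tissue on its own, which is less strict, 27 genes passed in both and 26 (0.177%) had the same sign.

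The 2 genes with the smallest adjusted p of that test, 0.0595, were S100a8 and Xdh. S100a8, a calcium-binding protein released by neutrophils, had 308 to 700.5 normalized reads (median 495) in kidney PD, against 27.4 to 139.8 (median 121) in kidney Control, and 3151 to 6948 (median 3809) in LV PD, against 430.3 to 2087 (median 1346) in LV Control. In both tissues each PD library lay above every Control library. Its folds were 5.01 and 3.54, and its partner S100a9 had folds of 3.62 and 2.99, also without overlap (adjusted p = 0.0643). The interaction of S100a8 was -0.23, with a 95% interval from -1.08 to 0.61. Neither a difference nor likeness within 1.5-fold on the deposited log2 scale was shown.

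Xdh, xanthine dehydrogenase, which makes uric acid from purines, was both called on average and alike. It had 3124 to 4383 normalized reads (median 3868) in kidney PD, against 2067 to 2651 (median 2429.8) in kidney Control, and 17491 to 30239 (median 20819.8) in LV PD, against 11865 to 15771 (median 13786) in LV Control. PD libraries lay above Control libraries in both tissues, with folds of 1.61 and 1.64. The interaction was -0.03, with a 95% interval from -0.37 to 0.31.

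Cyp26b1, which breaks down retinoic acid, had the largest average change of the genes named here. It had 167 to 655 normalized reads (median 496) in kidney PD, against 66.8 to 186 (median 99.3) in kidney Control, and 1359.9 to 3701 (median 1982) in LV PD, against 286 to 631 (median 351) in LV Control. In kidney 5 of 6 PD libraries and in LV all 6 lay above the Control range. Its folds were 4.10 and 5.77 (same-direction adjusted p = 0.0643). Among the neutrophil genes, Mmp8, the collagenase of neutrophil granules, shows the effect of the scale. Mmp8 had 93.7 to 180.4 (median 129) in kidney PD, against 6.76 to 47.4 (median 34.6) in kidney Control, and 1259 to 2235 (median 1552) in LV PD, against 149 to 630.4 (median 425) in LV Control. The read folds of 4.25 and 4.12 were close, while the log2 changes were 0.99 and 1.87 and the interaction -0.88 (adjusted p = 0.254), against 0.28 with limma-voom.

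**Figure D4:**
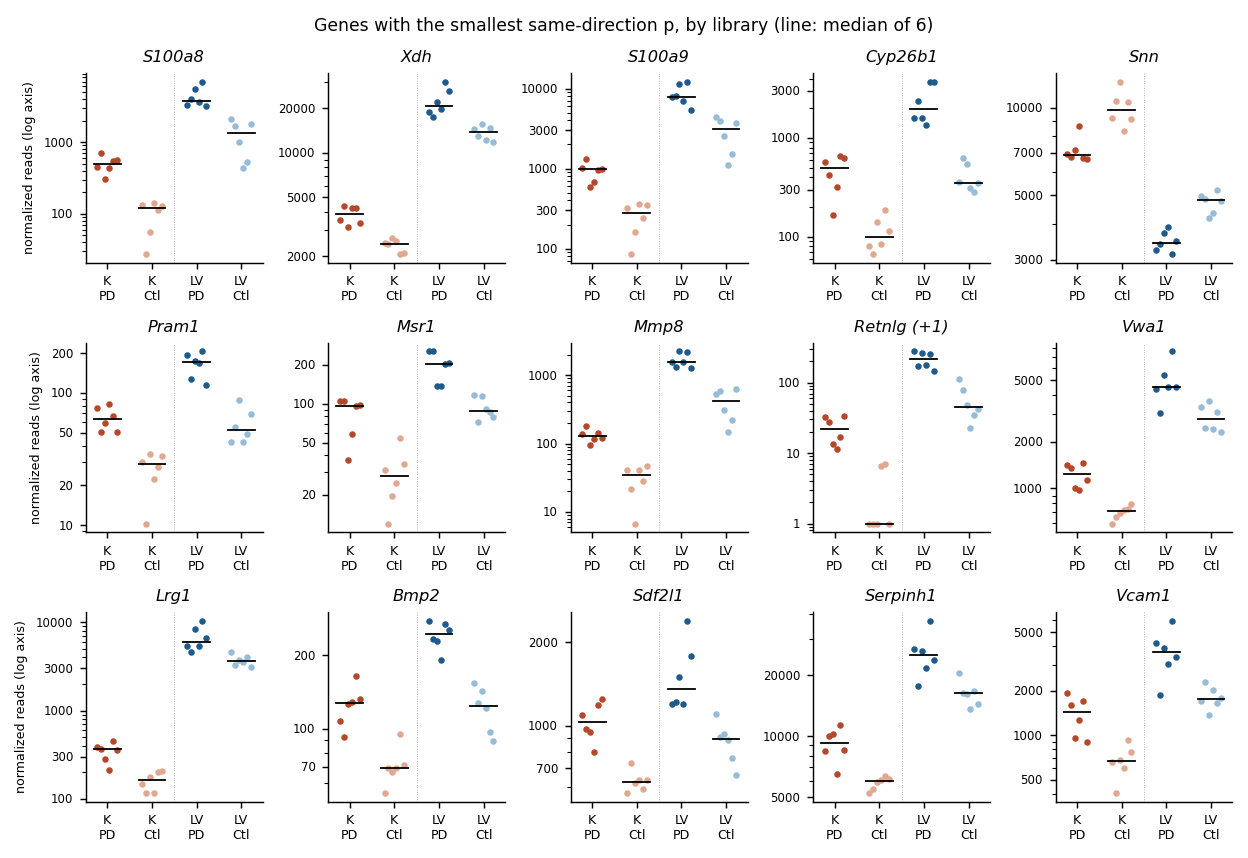
Normalized reads per library (log axis, 1 point per library, line at the median of 6) of the 15 genes with the smallest p for a change in the same direction, in kidney (K) PD and Control and in LV PD and Control (Ctl). Of the 15, only Snn is lower with PD, and in S100a8, S100a9, Xdh, Mmp8, Pram1, Retnlg (drawn as reads plus 1) and Sdf2l1 the PD and Control libraries do not overlap in either tissue.

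A gene was called alike when the average of both changes passed, the signs agreed, and the 95% interval of the interaction lay within 0.58 either way. This is a 1.5-fold difference on the deposited log2 scale. At low reads that scale is compressed, so for genes with few reads the margin spans more than 1.5-fold in reads. For such genes likeness within 1.5-fold of reads was not shown. The average change passed for 538 higher genes (3.66%) and 350 lower genes (2.38%). Of these 888 genes, 478 were alike, 259 higher (1.76%) and 219 lower (1.49%), and in 370 of the 478 the smaller change was at least 50% of the larger. In 291 of them both changes were also at an unadjusted p under 0.05 (179 higher and 112 lower), a condition added after seeing the data. The median size of the average change among alike genes was 0.29. Of 410 genes called on average but not alike, 300 changed more in LV and 110 more in kidney. Without LV PD 2 there were 1387 alike genes, which held 429 of the 478.

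Genes of vessels were among the named alike genes. Eng, endoglin, a coreceptor for transforming growth factor beta on endothelium, had 4668 to 6639 normalized reads (median 5261) in kidney PD, against 2872 to 5204 (median 3701) in kidney Control, and 32519 to 55783 (median 46436) in LV PD, against 24996 to 29865 (median 27199.6) in LV Control. Only LV groups were free of overlap. Eng rose 1.44-fold and 1.66-fold. Lrg1, a secreted glycoprotein of inflammation and vessel growth, rose 2.12-fold and 1.82-fold. Without LV PD 2, neither Eng nor Lrg1 met the alike rule. Bmp2, a bone morphogenetic protein, rose 1.76-fold and 1.98-fold, and Ackr3, a scavenging chemokine receptor, had folds of 1.47 and 1.52. Vwa1, a matrix protein, rose 1.74-fold and 1.71-fold. Vcam1, an adhesion molecule for monocytes and lymphocytes, rose 2.06-fold and 2.07-fold in kidney and LV, and its interaction interval, -0.64 to 0.59, was slightly too wide for the alike rule. It stands beside Icam1, Selp and Sele, whose folds were larger in LV.

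Some genes of macrophages and of protein secretion were also among the named alike genes. Msr1, a scavenger receptor, had 37.2 to 105 normalized reads (median 96.3) in kidney PD, against 12 to 54.2 (median 27.8) in kidney Control, and 136 to 253 (median 204) in LV PD, against 72 to 117 (median 88.7) in LV Control, with folds of 2.84 and 2.11. C5ar1, the receptor for the complement fragment C5a, rose 1.83-fold and 1.70-fold, Ifitm1, an interferon-induced membrane protein, 1.72-fold and 1.63-fold, and Vsir, an inhibitory immune receptor, had folds of 1.51 and 1.53. Serpinh1, the collagen chaperone, had 6526 to 11331 (median 9256) in kidney PD, against 5233 to 6323 (median 6006) in kidney Control, and 17679 to 37044 (median 25057) in LV PD, against 13608 to 20444 (median 16273) in LV Control. Kidney groups did not overlap and 5 of 6 LV PD libraries lay above the LV Control range. Its folds were 1.56 and 1.57, those of Sdf2l1, an endoplasmic reticulum chaperone component, 1.65 and 1.77, and those of Plod1, a collagen lysyl hydroxylase, 1.27 and 1.43.

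Fewer named genes fell in both tissues. Gpd2, the mitochondrial glycerol-3-phosphate dehydrogenase, had 832 to 1132 normalized reads (median 988) in kidney PD, against 1443 to 1857 (median 1519) in kidney Control, and 614 to 769.8 (median 681) in LV PD, against 786 to 1100.0 (median 883) in LV Control. PD libraries lay below Control libraries in both tissues. Its folds were 0.62 and 0.74, and it had the smallest average-effect p among the named alike genes (adjusted p = 3.86e-05). Snn, stannin, fell with folds of 0.72 and 0.74. Slc1a1, a glutamate transporter, had 10075 to 14178 (median 10983) in kidney PD, against 12455 to 15508 (median 14297) in kidney Control, with folds of 0.80 and 0.73. Plekha1, a phosphoinositide-binding protein, shows how wide the rule is, with changes of -0.10 in kidney and -0.39 in LV, of which only the second passed in its own tissue.

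Gene lists were described by counts and medians, beside medians near 0 over all genes (-0.0016 for the change in kidney, 0.0044 for that in LV and -0.0031 for the interaction). Among all genes measured in both tissues, 3.66% were higher and 2.38% lower on average, and 1.76% and 1.49% were alike. Of all genes tested, 5.34% had a positive and 6.51% a negative interaction at an unadjusted p under 0.05. The list counts here and below stand beside these shares. Of 28 neutrophil genes tested, 24 had a positive change in kidney and 25 in LV. Their median change was 0.34 in kidney and 0.85 in LV, and 12 had a negative and 2 a positive interaction at an unadjusted p under 0.05. Of the 21 with enough reads in both tissues, 15 passed on average, all higher, and 0 were alike. The list's median interaction was -0.33 on the deposited scale, -0.24 on log2 of normalized reads plus 1, -0.09 with limma-voom and 0.02 with limma-voom and library weights. Its size thus depended on the scale, and its sign turned only with the library weights. Il1b, the cytokine interleukin 1 beta, was on the positive side, with folds of 3.15 in kidney and 1.09 in LV (interaction 1.07, adjusted p = 0.258). Among 26 monocyte and macrophage genes, of which 25 were measured in both tissues, 13 passed on average, all higher, and 4 were alike (Fcgr1a, C5ar1, Msr1 and, except without LV PD 2, Fcer1g). Their median interaction, -0.13, was 0.13 with limma-voom.

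The erythroid list kept its direction on each of those scales. Of 19 genes tested, 17 had a negative interaction, with a median of -0.39 (-0.39 also with limma-voom), and median changes of 0.11 in kidney and 0.53 in LV. On average 8 of the 16 measured in both tissues rose and 0 fell, and 0 were alike (9, 2 and 2 without LV PD 2). Alas2, the first enzyme of heme synthesis in red cell precursors, had folds of 1.63 and 2.32 (interaction -0.70, adjusted p = 0.366), and Hbb, the beta globin gene, had folds of 1.64 and 1.88. Of 33 endoplasmic reticulum chaperone and unfolded protein response genes 27 had a negative interaction (median -0.20). Of the 32 measured in both tissues 11 rose on average, 5 of them alike (Dnajc3, Atf4, Sdf2l1, Pdia6 and, except without LV PD 2, Manf). Creld2 had folds of 1.24 and 1.99, and Pdia4, a disulfide isomerase, 1.33 and 1.76.

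The list of heat shock and cold-inducible genes lay on the other side. Of 34 tested, 7 had a positive and 0 a negative interaction at an unadjusted p under 0.05 (median 0.09), and 10 rose and 1 fell on average (14 and 4 without LV PD 2). Fkbp4, a cochaperone of steroid receptors, had 9002 to 12239 normalized reads (median 10566) in kidney PD, against 7769.6 to 8312 (median 7885) in kidney Control, without overlap, and 10719.6 to 15691 (median 13881) in LV PD, against 11304 to 16612 (median 13529) in LV Control. Its interaction was 0.44 (adjusted p = 0.208). Hspa1a, an inducible HSP70, had folds of 1.26 and 1.82, and Hspb1, a small heat shock protein, 2.10 and 1.95, so members did not share a direction of the interaction.

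Most muscle and mitochondrial genes had positive interactions. Of 36 sarcomere and calcium handling genes, 32 had a positive interaction, with median changes of -0.00 in kidney and -0.27 in LV, and 25 were measured in both tissues. Tpm1, an alpha tropomyosin, had 8360.4 to 9925 normalized reads (median 9381) in kidney PD, against 6484 to 7979.8 (median 7161) in kidney Control, without overlap, and 326257 to 475339 (median 422342) in LV PD, against 375776 to 596183 (median 476865) in LV Control (interaction 0.59, adjusted p = 0.122, and 0.0443 without LV PD 2). Of 51 oxidative phosphorylation genes 48 had a positive interaction, with a median of 0.12 and 4 at an unadjusted p under 0.05. Their median change was 0.10 in kidney, where 40 were higher, and -0.05 in LV, where 22 were, and 0 passed on average (5 lower without LV PD 2). Genes of one list share variation between libraries and are not independent observations. For collagen and matricellular genes, 32 of 46 had a positive interaction, with median changes of 0.32 in kidney and 0.17 in LV. Col6a3 had folds of 1.72 and 0.93 (adjusted p = 0.221), while Col4a3, a chain of glomerular basement membrane collagen, had 0.74 and 1.21 (adjusted p = 0.258).

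Other lists had medians of the same sign in both tissues. Complement and acute phase genes had medians of 0.42 in kidney and 0.53 in LV, and 20 of 32 tested had a negative interaction. Of the 29 measured in both tissues, 18 rose on average, 2 of them alike. C1qa, a chain of the first complement component, had folds of 1.82 and 1.66, and C3 had 1.65 and 3.00. The sum of 11 endothelial markers was 24520 to 39914 normalized reads in kidney PD, against 19106 to 30294 in kidney Control, and 173919 to 280733 in LV PD, against 165275 to 208298 in LV Control, and the list's medians were 0.35 and 0.36. Of 39 mitotic genes, 37 had a negative change in kidney and 34 in LV, with medians of -0.29 and -0.23, and 8 fell on average. Top2a, the DNA topoisomerase of dividing cells, fell on average, with folds of 0.59 and 0.49. The median interaction of that list was near 0 here (-0.00) and 0.14 with limma-voom. Cholesterol synthesis genes fell on average for 4 of 25 measured in both tissues, all of them alike (Sqle, Idi1, Sc5d and Hmgcs1), against 7 that fell and 5 alike without LV PD 2.

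**Figure D5:**
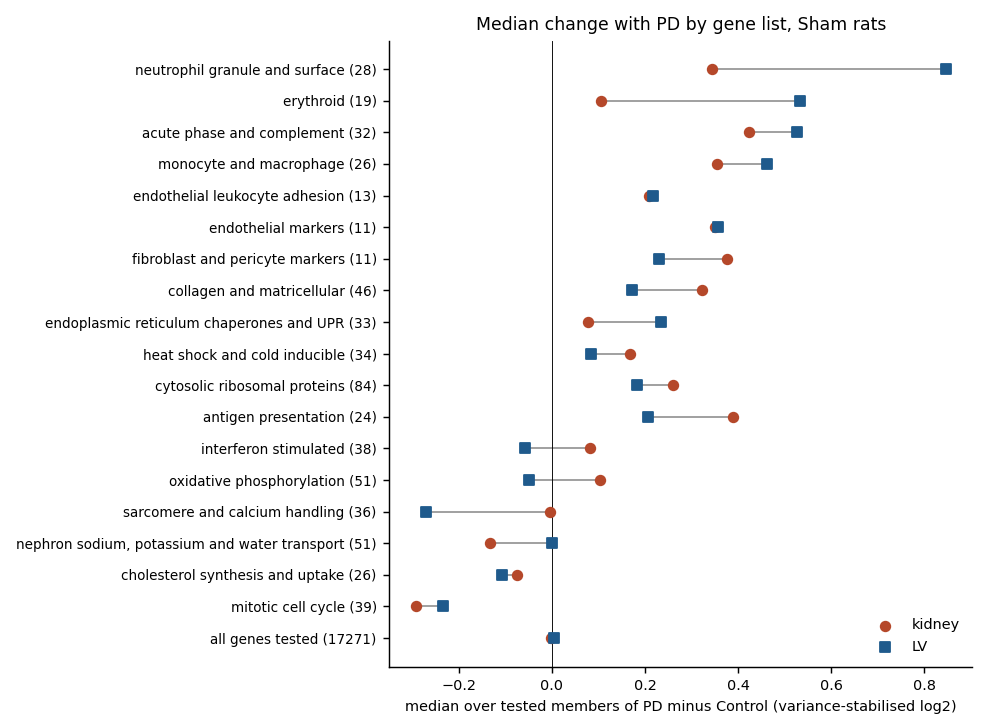
Median change with PD over the tested members of each gene list (number tested in parentheses) in kidney (circles) and LV (squares), as differences of variance-stabilised log2 values, beside the median of all 17271 genes. The neutrophil list stands at 0.34 and 0.85 and the erythroid list at 0.11 and 0.53, and the sarcomere list lies at -0.00 in kidney and -0.27 in LV.

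The same interaction was computed in the 28 libraries of 5/6Nx rats, which had lost most of their kidney mass at surgery, 7 each of PD and Control per tissue, as a comparison chosen after seeing the Sham results. Of the 15 Sham genes, 8 had the same sign there, beside 45.5% of all genes, and 0 genes passed (781 at an unadjusted p under 0.05 in limma). Mmp9 was the only one of the 15 with the same sign at an unadjusted p under 0.05, with an interaction of -1.65 in Sham and -0.97 in 5/6Nx rats. For Rras2 the values were 0.67 in Sham and -0.13 in 5/6Nx rats, and for Serpinb1a -1.77 and -0.60. The difference between the Sham and the 5/6Nx interaction passed for 0 genes, with 12 of the 15 at an unadjusted p under 0.05, a count that is not independent of their selection in the Sham libraries. Of the alike genes, 161 of 259 higher ones (62.2%) had a positive average change in 5/6Nx rats and 91 of 219 lower ones (41.6%) a negative one, where 49.4% of all genes measured in both tissues had a positive change.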

How the data were processed

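The authors trimmed reads of TruSeq stranded mRNA libraries with Trim Galore and cutadapt, mapped them with HISAT2 (genome build rn6), counted genes by StringTie2 and normalised with DESeq2. The deposited table gives 20624 genes as log2 values. The scale of the authors matches the variance stabilisation of DESeq2 across 52 libraries. It was turned back into normalized reads and from these into whole reads (100.0% within 0.01). The 8 mean columns and the authors' tables of fold changes and p-values were not used. No sequence was printed, since no reference of the files' build was at hand.

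The 24 Sham libraries were fitted with limma 3.58.1 (R 4.3.3, statmod 1.5.0, eBayes with trend and robust settings) on the deposited values, as 4 groups of 6. Genes needed 10 normalized reads in 6 libraries, and for both tissues in 6 of 12 of each. The planned count test was replaced once the unit was known, and limma-voom on recovered reads served as an alternative. P-values measure the spread between libraries of a group, and no 2 libraries of a Sham group were alike within sampling noise (chi-square per gene at least 27.8). The fits were checked on simulated reads with a common spread for all genes and no outlying library. That check does not cover a library such as LV PD 2. In all, 35 alternatives were run, 24 of them leaving out 1 library.

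Named genes were the 15 of each sign with the smallest interaction p, 10 of each sign among genes measured in both tissues, 15 same-direction and up to 20 alike genes, with a mean of at least 100 normalized reads in a group, members of 36 gene lists of smallest p, genes the paper's text names, and tissue markers. The text gives part of them, and 1 gene past the interaction threshold is not reported here. The members, lists and rules were chosen with earlier results of these data known.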

Additional observations from a re-analysis of the deposited data

Results flagged for a closer look

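In 5 of 166 gene and group pairs looked at over 42 genes (3.01%, where chance gives about 1 in 20), 1 library of 6 lay apart, with a gap to its nearest neighbour beyond Dixon's limit for the group's range. Serpinb1a in LV PD had a gap of 0.794 of the range, from library PD 5 at 2481 normalized reads to the next at 1209. Slc7a5 in LV Control had 0.631 (library Control 3 at 412.5, next 320.9), and C5ar1 in LV Control 0.626 (library Control 1 at 908.6, next 550.2). In kidney PD, library PD 4 lay apart for 2 genes, Slc1a1 at 0.684 (14178 reads) and Snn at 0.722 (8671, next 7184).

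The genes whose change with PD differed between kidney and LV by the limma interaction were the other results to look at again. The positive interactions were those of Rras2 (0.667), Pxdc1 (0.961), Fgf16 (0.947), Rgma (0.808), Fhl2 (1.02) and Gypc (0.805). The negative ones were those of Serpinb1a (-1.77), Trpm3 (-0.774), Mmp9 (-1.65), Lrrn1 (-1.09), Csf2rb (-1.17), Slc7a5 (-0.96), Dock8 (-0.749) and Stxbp2 (-0.585). No explanation of these differences was tested.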

How the results depend on the processing

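Of 15 interactions past the threshold 0 changed sign under any alternative run. With 1 library left out in turn, the count of interaction genes was 5 to 148, that of same-direction genes 0 to 4, that of average effect genes 473 to 2627 and that of alike genes 239 to 1387. Without LV PD 2 and kidney PD 4 together the counts were 138 interaction, 0 same-direction, 2865 average effect genes and 1579 alike genes. Fitting all 8 groups of the series together gave 6, 1, 236 and 98 in that order, and limma-voom with library quality weights 68, 1, 2861 and 1340. On log2(normalized reads) after adding 1 there were 3 same-direction and 275 alike genes, with size factors within each tissue 2 same-direction genes, and with a weight per tissue 4. A narrower margin left 59 alike genes, a margin of 2-fold gave 802, and the added condition that both changes be at an unadjusted p under 0.05 gave 291. The causes were not tested, except that margins and conditions act by construction and that fits without a library hold fewer libraries. TMM scaling, limma-voom, other filters and the non-robust setting gave 12 to 21 interaction genes. The median interaction of all genes moved to 0.0048 with size factors within each tissue and to -0.0114 with TMM. Over the named genes an interaction lost its call in 98 cases and gained one in 75. The median interaction of the monocyte and macrophage list turned direction with limma-voom, and that of the neutrophil list only with library weights, as given above. No paired analysis was possible because the labels name no animal, and the library IDs in the titles, although they mostly run in parallel in kidney and LV, are not said to tie the tissues of a rat. Sham kidney Control 5 and 6 carry IDs in the block of numbers held mostly by LV libraries. Sham LV Control 1 and 2 carry IDs in the block held mostly by kidney libraries. No label says what these blocks stand for. Tissue was taken from the labels, which matched the markers. P-values of the interaction and the average therefore treat both tissues as independent. If both tissues of a rat vary together, p-values of the average, on which the alike calls rest, come out too small. Those of the interaction then come out too large. Whether they vary together was not tested. Low reads limit what can be said of genes such as Fgf16, Cd177 and LOC100909700 in kidney, where libraries hold 0 to 13.6 normalized reads.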

Other observations

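Other gene lists, chosen with earlier results of these data known, gave values that belong to no comparison above. Of 25 genes of the fetal heart program and heart growth factors, of which 16 were measured in both tissues, 17 had a positive and 8 a negative interaction, with medians of 0.04 in kidney and -0.14 in LV. Ankrd1, a stress-responsive muscle protein, had folds of 1.31 in kidney and 0.73 in LV, and Edn1, endothelin 1, had folds of 0.998 and 1.84. Of 26 retinoic acid genes tested, 20 were measured in both tissues, and 3 of these rose on average (6 without LV PD 2). Beside Cyp26b1 the 3 were Rarres2 (folds of 1.73 in kidney and 1.26 in LV) and Dhrs3 (1.19 and 1.21). Socs3, a suppressor of cytokine signalling, rose on average with folds of 1.99 and 2.08, where its relatives Cish and Socs2 had folds under 1 in LV only.

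Of 51 genes of sodium, potassium and water transport in the nephron, of which 29 were measured in both tissues, 7 had a negative and 0 a positive interaction at an unadjusted p under 0.05. For genes such as Aqp3, nearly without reads in LV, the interaction restates the kidney change. Aqp3, a water channel of the collecting duct, had 6265 to 13573 normalized reads (median 8656) in kidney PD, against 10688 to 16717 (median 12503) in kidney Control, and at most 2.78 in LV (interaction -0.56, adjusted p = 0.231 in limma). Slc9a3, a sodium-proton exchanger, fell on average, with folds of 0.73 and 0.52. Of 84 entries for cytosolic ribosomal proteins, 82 had a positive change in each tissue, with medians of 0.26 in kidney and 0.18 in LV, and 4 passed on average, all higher and alike, where 3.66% of all genes measured in both tissues were higher on average. Without LV PD 2 there were 46, of which 45 were alike. Antigen presentation genes had medians of 0.39 and 0.21 and interferon-stimulated genes 0.08 and -0.06, each with 0 interactions past the threshold over all genes in limma (0 and 1 at an unadjusted p under 0.05). Of 15 core clock genes, 2 had a positive and 2 a negative interaction at that level, and 0 passed on average. Of 28 entries for glucocorticoid-responsive genes, 3 rose and 2 fell on average (3 and 5 without LV PD 2), with Klf9 at folds of 0.61 and 0.80 and Angptl4 at 1.87 and 2.58.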
